A study of Mus musculus with 6 samples.

Results

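Fibroblast growth factor (FGF) signalling was followed through 35 genes in mouse embryos that lack Paraxis, a basic helix-loop-helix (bHLH) factor of the somites that is the product of the gene Tcf15. The genes were chosen by name, as parts of the pathway and with earlier results of these data known: 19 ligands or ligand relatives, 5 receptors, 10 feedback and target genes, and Frs2, the adaptor that links activated receptors to the Ras pathway. A probe of the array carried the name of 34 of the 35, with 63 probes in all, among 28035 gene names on the array. Fgf4 had no probe of that name and was not analysed here. After a filter on dim probes 29 of the 35 could be tested, among 19335 genes tested in all.

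The compared groups were wild-type (WT) embryos and Paraxis-/- embryos at embryonic day 9.5, both labelled as C57BL/6J, and the labels do not describe the mutant allele or how it was made. The tissue was dissected as the anterior part of the presomitic mesoderm with the 4 newest somites, and tissue of 5 embryos was pooled. RNA of 3 pools per genotype was hybridised on 6 two-colour Agilent arrays. Each WT pool shared a dye-swapped pair of arrays with 1 Paraxis-/- pool, so the data are 3 pairs, which bear the letter of their WT pool (A, B or C). Pair A lay alone on slide 1 and pairs B and C lay on slide 2, so what sets pair A apart as embryos and what sets its slide apart cannot be told apart.

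FGF ligands are secreted proteins that bind receptor tyrosine kinases together with heparan sulfate, and the receptors act through Frs2, Ras and the mitogen-activated protein (MAP) kinase ERK. ERK signalling switches on transcription factors of the Etv family and also its own inhibitors, the Sprouty and Spred proteins and the dual-specificity phosphatases, which makes these genes common readouts of the pathway. In the tail of the vertebrate embryo FGF activity is high at the posterior end and falls off toward the front of the presomitic mesoderm. Cells that leave this gradient become competent to form a somite. The dissected region lies at the front of that gradient.

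Between 27080 and 31795 of the 43379 gene spots of an array were well above background in a channel. Tcf15 was checked first: its log2 ratio of Paraxis-/- over WT was -5.23, -5.48 and -5.52 in pairs A to C, which is 42.5-fold lower on average (SE 0.09, limma adjusted p = 0.00053). All 7 genes of a list of somite markers passed the filter on dim probes, which asks for 4 of 6 measurements in either genotype. So did all 8 genes of a list of tail bud and posterior presomitic mesoderm markers, although the label names only the anterior part. Detection of these markers in each genotype by itself was not counted. The summed signal of those 8 genes was 5146 in WT pool A, against 17345 in WT pool B and 16018 in WT pool C. In the Paraxis-/- pools it was 24073 with pair A, 12513 with pair B and 14922 with pair C. WT pool A therefore stood apart at the low end and the Paraxis-/- pool it was paired with at the high end, and the values below are given for each pair and also without pair A.

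Whether a ligand was detected rests on its probe, so the probes at and under the limit are shown where their sequence is informative. The 3 shown have 60 bases and positions in mm9 that span an intron, so that they match spliced message. Further probes of Fgf21 and Fgf12 under the limit also have positions longer than the probe and are not shown. The Fgf2 probe (chr3:37247934-37295153, printed on the array as 10 spots) and the Fgf16 probe (chrX:102967920-102969292) were never above the limit, and the Fgf3 probe (chr7:152026667-152028526) was just above it.
Fgf2 probe: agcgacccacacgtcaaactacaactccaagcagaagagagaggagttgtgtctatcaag
Fgf16 probe: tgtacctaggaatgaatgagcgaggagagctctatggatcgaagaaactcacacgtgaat
Fgf3 probe: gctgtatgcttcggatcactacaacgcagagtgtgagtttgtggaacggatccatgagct

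Of the 18 ligands with a probe, 13 were detected, which required a probe that passed the background limit in 4 or more of 6 measurements in WT or in Paraxis-/- tissue. Among the secreted ligands these were Fgf3, Fgf5, Fgf7, Fgf8, Fgf9, Fgf10, Fgf17 and Fgf18, together with Fgf15, the mouse counterpart of the endocrine hormone FGF19. The other 4 were Fgf11, Fgf12, Fgf13 and Fgf14, the FGF homologous factors, which stay inside the cell, bind sodium channels and are not ligands of the receptors in the usual sense. Fgf8, Fgf9, Fgf10, Fgf11, Fgf13, Fgf14, Fgf15 and Fgf18 were well above background in all 12 measurements. Fgf3 was the least secure, with 3 of 6 WT and 4 of 6 Paraxis-/- measurements. Fgf17 had 4 of 6 in WT and 6 of 6 in Paraxis-/- tissue, and Fgf5, Fgf7 and Fgf12 missed 1 measurement each.

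The ligands under the limit were Fgf1, Fgf2, Fgf16, Fgf20 and Fgf21. Fgf20 was well above background in 3 of 6 measurements of each genotype and the better Fgf1 probe in 2 of 6 WT and 3 of 6 Paraxis-/- measurements. Neither probe of Fgf21, an endocrine ligand of liver and fat, passed in more than 1. Fgf2 and Fgf16 passed in none. A probe under the limit gives only an upper bound on its signal and does not show that the transcript is missing.

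**Figure D1:**
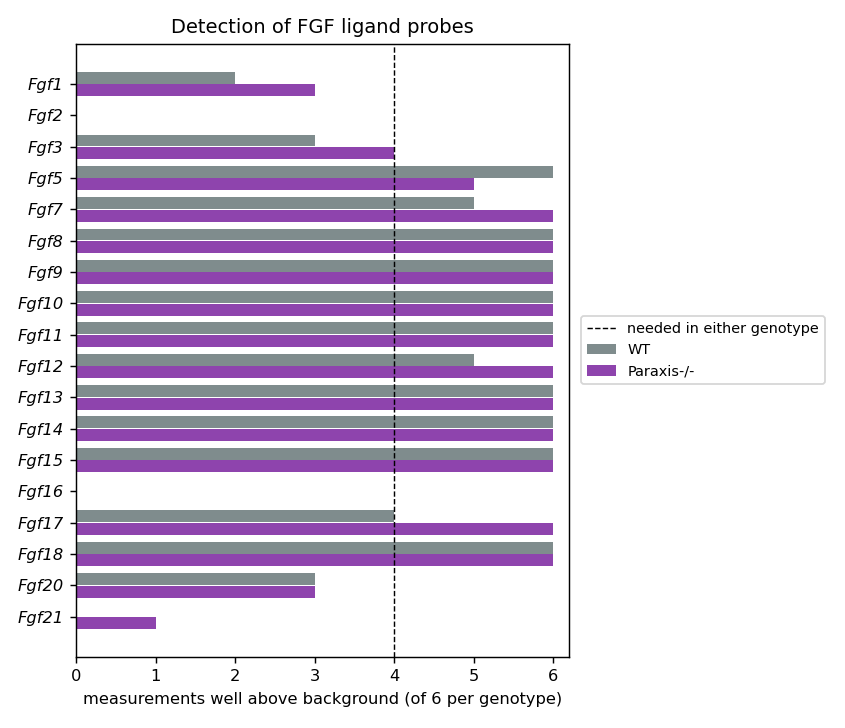
Number of measurements, of 6 per genotype, in which the best probe of each ligand was well above background, with WT in grey and Paraxis-/- in purple; the dashed line marks the 4 measurements needed in either genotype. 13 ligands reach the line, and Fgf2 and Fgf16 have no bar.

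All 5 receptors, all 10 feedback and target genes and Frs2 were detected. Of the 29 tested genes, 23 were well above background in all 12 measurements. No spot of these genes was marked as saturated.

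No FGF pathway gene passed the test between the genotypes over all 3 pairs. At an adjusted p of 0.05 in limma 0 of the 29 passed, where 0.0207% of all genes did, and the smallest adjusted p among the 29 was 0.933. At an unadjusted p under 0.05 there was 1, Fgf15 with a higher ratio, where 2.34% of all genes passed with a higher and 2.73% with a lower ratio. The mean log2 ratios ran from -0.19 for Fgf18 to 0.45 for Fgf15. The pools of both genotypes overlapped for each of the 29 genes, whereas 5.96% of all genes had no overlap. In bulk tissue a smaller share of cells of one kind and less RNA per cell cannot be told apart. The 95% confidence interval of the mean lay within 1.5-fold in both directions for 20 of the 29 genes. For 26 it lay within 2-fold, and for the other 3, Fgf8, Fgf9 and Fgf18, it did not. The limma fit draws the variance of each gene toward that of all genes. For genes that varied more between pairs than most, the intervals are therefore narrower than their own 3 ratios alone would give. These intervals hold for the background correction used here and do not exclude a larger difference for dim probes. The dim Fgf12 probe had an interval from -0.09 to 0.25, but its mean was 0.35 with Agilent processed signals.

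The FGF pathway genes varied widely between pairs. Their median range over pairs was 0.50 on the log2 scale, against 0.26 for all genes tested, while the median gap between the arrays of a dye swap was 0.17 for both. For 20 of the 29 genes the range was larger than the widest of their dye-swap gaps, where 40.7% of all genes with 3 pairs had such a range. A gap between dye-swapped arrays is technical alone, whereas the range over pairs also holds the difference between pools. The median standard deviation over pairs was 0.25 for the 29 genes and 0.14 for all genes tested. For 9 genes the standard deviation was above the 95th percentile of all genes: Fgf8, Fgf9, Fgf17, Fgf18, Fgfr3, Spry2, Dusp4, Dusp6 and Etv4. The same sign in all 3 pairs was seen for 3 genes, Fgf12, Fgf15 and Spry1, where 25.7% of all genes had it. For each of these 3 the dye-swapped arrays of pair A differed in sign, so the agreement holds only for the averaged ratios.

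**Figure D2:**
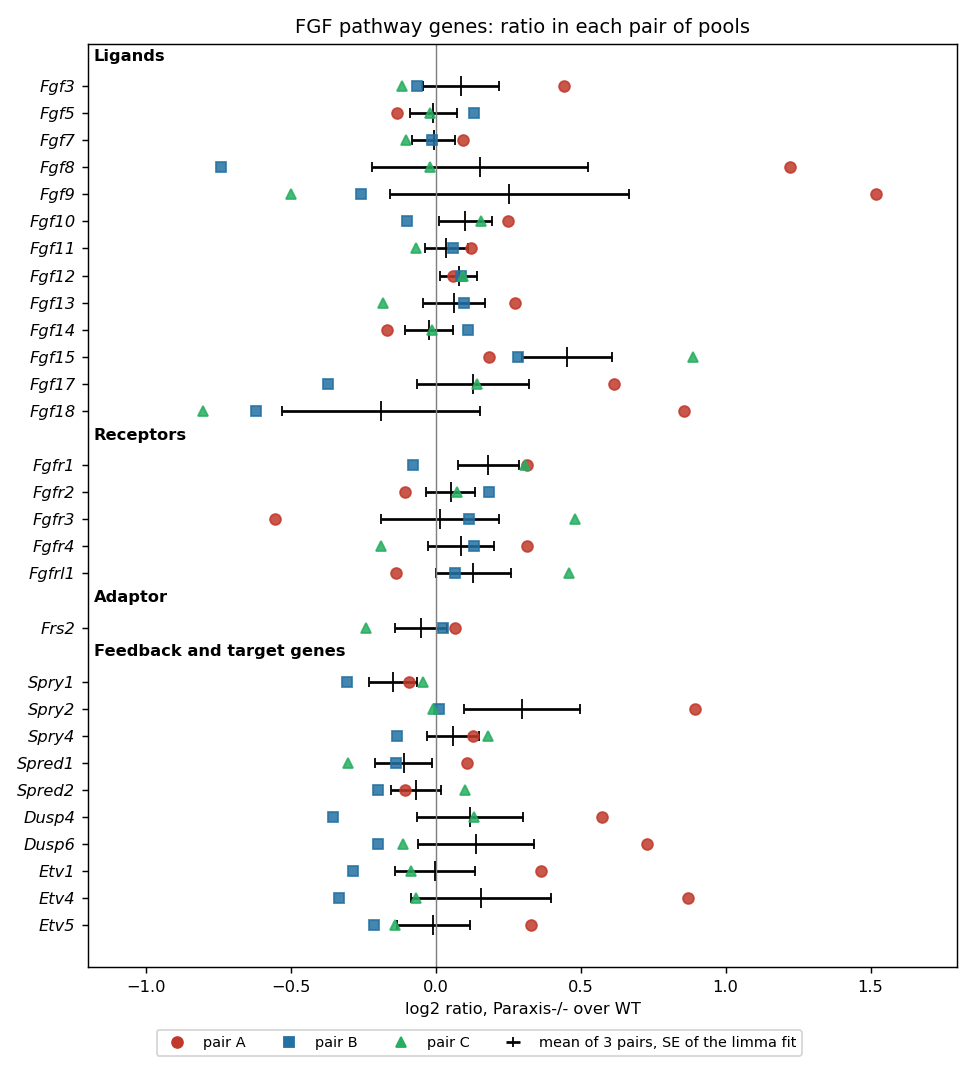
Log2 ratio of Paraxis-/- over WT for the 29 tested genes, grouped by role, with pair A as circles, pair B as squares and pair C as triangles; the black tick and bar give the mean of 3 pairs and its SE. Fgf8, Fgf9, Fgf18, Spry2, Dusp6 and Etv4 have their pair A value far to the right of the other pairs, and Fgfr3 has it to the left.

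**Figure D3:**
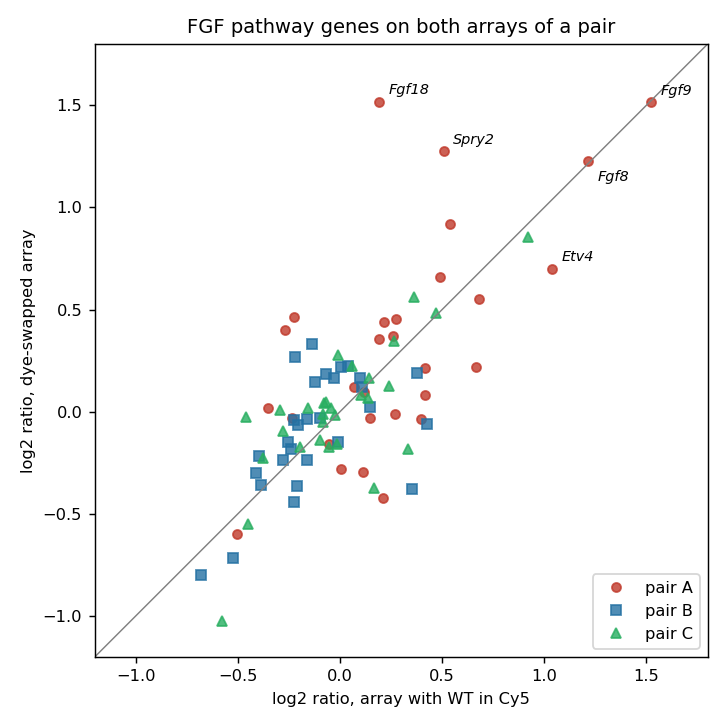
Log2 ratio of each tested gene on the array with WT in Cy5 (horizontal) against the dye-swapped array of the same pools (vertical), with the line of equality in grey. The pair A points of Fgf8, Fgf9 and Etv4 lie near the line, while those of Fgf18 and Spry2 lie above it.

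Fgf8, the ligand that forms the posterior gradient of the presomitic mesoderm, had ratios of opposite sign in pairs A and B. Its log2 signal was 9.58, 10.36 and 9.96 in WT pools A, B and C and 10.80, 9.61 and 9.94 in the Paraxis-/- pools of the same pairs. The highest and the lowest pool thus both belonged to pair A, and the WT and Paraxis-/- pools interleaved. The log2 ratio was 1.22 in pair A (2.33-fold higher) but -0.74 and -0.02 in pairs B and C, with a mean of 0.15 (SE 0.37, 95% confidence interval from -0.81 to 1.12, limma adjusted p = 0.988). The dye-swapped arrays repeated each value, with 1.21 and 1.23 in pair A and -0.68 and -0.80 in pair B. The probe, at chr19:45811364-45811423 in mm9, was printed as 10 spots, and its spots had a standard deviation of 0.04 to 0.05 within an array. A dimmer Fgf8 probe gave 0.40, -0.45 and 0.20, with smaller ratios in pairs A and B and a positive one in pair C. Without pair A the mean was -0.38.

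Fgf9, a ligand of mesenchyme and gonad, and Fgf17 and Fgf18, the close relatives of Fgf8, also had their highest ratio in pair A. Fgf9 had log2 signals of 8.55, 9.59 and 9.45 in WT and 10.07, 9.33 and 8.95 in Paraxis-/- pools, so WT pool A was the lowest of the 6 pools and its partner the highest. Its ratios were 1.52, -0.26 and -0.50, with a mean of 0.25 (SE 0.41). Its dimmer probe gave 1.19, -0.18 and 0.33. Fgf17 had ratios of 0.62, -0.37 and 0.14, with a mean of 0.13 (SE 0.19).

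Fgf18 had log2 signals of 13.25, 14.08 and 14.33 in WT and 14.10, 13.45 and 13.53 in Paraxis-/- pools. The Paraxis-/- pool was higher in pair A and lower in pairs B and C, with ratios of 0.86, -0.62 and -0.80 and a mean of -0.19 (SE 0.34). Its pair A value is less secure than those of Fgf8 and Fgf9, because the arrays of the dye swap gave 0.19 and 1.52. Without pair A the mean was -0.71 for Fgf18, -0.38 for Fgf9 and -0.12 for Fgf17, so each of the 4 ligands with a ratio of at least 1.5-fold in pair A had a negative mean in the other pairs by its brightest probe. By the dimmer Fgf9 probe given above the sign in pairs B and C was mixed.

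Fgf15 was the ligand with the smallest p, and its averaged ratio was positive in every pair. Its log2 signal was 9.74, 9.26 and 8.99 in WT and 9.92, 9.55 and 9.88 in Paraxis-/- pools, so each Paraxis-/- pool was above its own WT pool while WT pool A was above 1 of the Paraxis-/- pools. The ratios were 0.18, 0.28 and 0.89, with a mean of 0.45 (SE 0.15, 95% confidence interval from 0.05 to 0.85), or 1.37-fold. In pair A the dye-swapped arrays gave 0.40 and -0.03, so the sign there was not repeated on both arrays. The unadjusted limma p was 0.0338 and the adjusted p was 0.933, so the difference did not pass over all genes. With exact enumeration of the signs of the 3 ratios (two-sided) p was 0.25, the smallest that 3 pairs allow. In the embryo Fgf15 is known from the neural tube, and a list of 9 neural tube markers had medians of -0.29, 0.16 and 0.21 in pairs A, B and C. The summed signal of these markers was 48251, 30935 and 27976 in WT and 37227, 38342 and 27814 in Paraxis-/- pools. The part of these markers in the Fgf15 ratio was not tested.

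The remaining ligands had means between -0.02 and 0.10. Fgf10, a mesenchymal ligand of limb and lung outgrowth, had log2 signals of 7.14, 7.38 and 7.25 in WT and 7.39, 7.28 and 7.40 in Paraxis-/- pools. Its ratios were 0.25, -0.10 and 0.15, with a mean of 0.10 (SE 0.09, adjusted p = 0.956), and the mean was 0.21 with Agilent processed signals. Fgf12 had log2 signals of 6.58, 6.49 and 6.58 in WT and 6.64, 6.58 and 6.67 in Paraxis-/- pools. Its ratios of 0.06, 0.09 and 0.09 were positive in all pairs, with a mean of 0.08 (SE 0.06, adjusted p = 0.953). In pair A the dye-swapped arrays gave 0.15 and -0.03. The size for this dim probe depended on the background correction, with a mean of 0.18 at a normexp offset of 0 and 0.35 with Agilent processed signals, neither past the threshold. The other homologous factors had means of 0.04 for Fgf11, 0.06 for Fgf13 and -0.02 for Fgf14. By the brightest probes no pair of the 4 factors went outside -0.18 to 0.27, while a dimmer Fgf14 probe gave -0.21 in pair B. Fgf3, a ligand of the tail bud and hindbrain, had a mean of 0.09 with 0.44 in pair A, and Fgf5 and Fgf7 had means of -0.01 each.

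**Figure D4:**
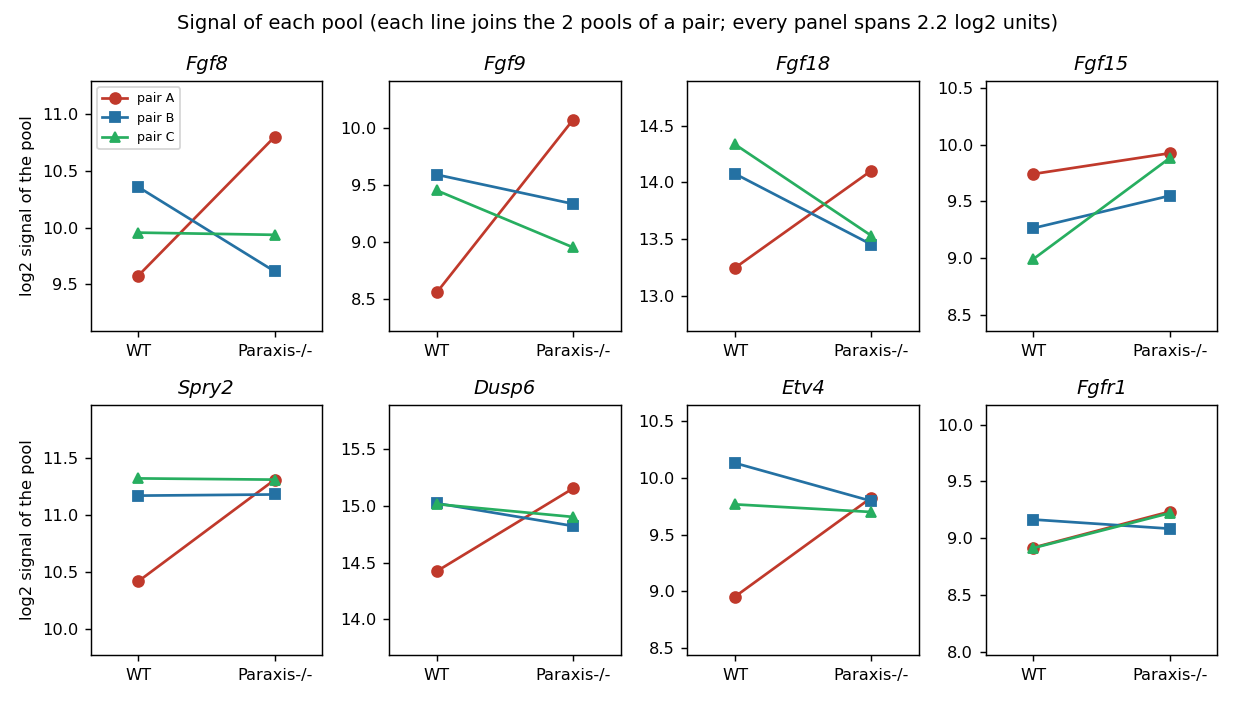
Log2 signal of each pool for 8 genes, with a line joining the WT and Paraxis-/- pools of a pair; every panel spans 2.2 log2 units, and levels of different genes are not comparable. WT pool A is the lowest WT pool for Fgf8, Fgf9, Fgf18, Spry2, Dusp6 and Etv4, and its line rises while the others fall or stay flat; for Fgf15 all lines rise.

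The receptors were mixed in pair A, where 2 of 5, Fgfr1 and Fgfr4, had a positive ratio. Fgfr1, the main FGF receptor of the paraxial mesoderm, had log2 signals of 8.92, 9.17 and 8.91 in WT and 9.23, 9.09 and 9.22 in Paraxis-/- pools. Its ratios were 0.32, -0.08 and 0.31, with a mean of 0.18 (SE 0.11, adjusted p = 0.950). The other 3 Fgfr1 probes, which lie elsewhere in the gene than the brightest, had means of -0.15, -0.13 and -0.04. Those with -0.15 and -0.13 overlap each other in position. The sign for Fgfr1 therefore depended on the probe, and the mean of all 4 probes was -0.04.

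Fgfr3, a receptor of the neural tube and later of cartilage, had log2 signals of 10.24, 9.48 and 9.56 in WT and 9.69, 9.59 and 10.03 in Paraxis-/- pools. WT pool A was the highest of the 6, the reverse of its place for Fgf8 and Fgf9. The ratios were -0.55, 0.11 and 0.48, with a mean of 0.01 (SE 0.20), and the other Fgfr3 probe that was kept gave -0.41, 0.05 and 0.37. That probe overlaps the brightest one in position, so it is not a separate reading of the transcript. The order of the pairs for Fgfr3 was that of the neural tube marker medians given above, and Fgf15 and Fgfrl1 had the same order. The part of these markers in the Fgfr3 ratios was not tested. Fgfr2, which carries signals of mesenchymal ligands to epithelia, had ratios of -0.11, 0.18 and 0.07. Fgfr4, a receptor of early somites and muscle precursors, had 0.32, 0.13 and -0.19, and Fgfrl1, a receptor relative without a kinase domain, had -0.14, 0.07 and 0.46. Their means were 0.05, 0.09 and 0.13. Frs2, which docks on the activated receptors, had a mean of -0.05 with ratios of 0.06, 0.02 and -0.24.

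Among the feedback and target genes the ETS transcription factors Etv1, Etv4 and Etv5, which ERK signalling switches on, were positive in pair A and negative in both other pairs by their brightest probes. Etv4 had log2 signals of 8.96, 10.13 and 9.77 in WT and 9.83, 9.80 and 9.70 in Paraxis-/- pools. The 3 Paraxis-/- pools lay within a narrow range, and WT pool A lay below all other pools. The ratios were 0.87, -0.33 and -0.07, with a mean of 0.16 (SE 0.24, adjusted p = 0.977), and without pair A the mean was -0.20. Etv1 had ratios of 0.36, -0.29 and -0.08 and Etv5 had 0.33, -0.21 and -0.14, with means of -0.00 and -0.01. The other Etv5 probe gave 0.49, -0.34 and 0.18, and was thus positive in pair C.

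The phosphatases that switch off MAP kinases also had their highest ratio in pair A. Dusp6, the cytoplasmic ERK phosphatase, had log2 signals of 14.42, 15.02 and 15.01 in WT and 15.15, 14.82 and 14.90 in Paraxis-/- pools. WT pool A was again the lowest and its partner the highest. The ratios were 0.73, -0.20 and -0.11, with a mean of 0.14 (SE 0.20, adjusted p = 0.976), and without pair A the mean was -0.16. Dusp4, a nuclear phosphatase, had ratios of 0.57, -0.35 and 0.13, and its other probe gave 0.30, -0.10 and -0.31. Its lowest pool was the Paraxis-/- pool of pair B and not WT pool A.

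The Sprouty and Spred inhibitors were more varied. Spry2 had log2 signals of 10.42, 11.17 and 11.32 in WT and 11.31, 11.18 and 11.31 in Paraxis-/- pools, so WT pool A lay below 5 pools that were close together. The ratios were 0.89, 0.01 and -0.01, with a mean of 0.30 (SE 0.20, adjusted p = 0.953). Its other probe gave 0.15, -0.06 and -0.18, so the size in pair A was not shared by both probes. Spry1 was the only feedback gene with 1 sign in all pairs: its log2 signals were 11.32, 11.03 and 10.91 in WT and 11.23, 10.73 and 10.86 in Paraxis-/- pools. Its ratios were -0.09, -0.31 and -0.05, with a mean of -0.15 (SE 0.08, adjusted p = 0.950). In pair A the dye-swapped arrays of Spry1 gave 0.11 and -0.30 and so differed in sign. Spry4 had 0.13, -0.13 and 0.18. Spred1, an inhibitor of Raf activation, had 0.11, -0.14 and -0.30, and Spred2 had -0.11, -0.20 and 0.10. The dimmer Spred1 probes gave -0.14, -0.13 and 0.02, and 0.01, -0.12 and -0.05. The other Spred2 probe gave 0.25, -0.34 and -0.14, with the opposite sign in pairs A and C. For the brightest Spred2 probe the dye-swapped arrays of pair A gave 0.21 and -0.42.

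Ligands, receptors and feedback genes were then set side by side. The median of the mean log2 ratios was 0.08 for the 13 ligands, 0.09 for the 5 receptors and 0.03 for the 10 feedback and target genes, against 0.00 for all genes tested. Positive means were found for 9 of 13 ligands, 5 of 5 receptors and 5 of 10 feedback genes, where 51.6% of all genes had one. These counts rest on the brightest probe of each gene. Of the 15 tested genes with several kept probes, 7 had probe means of both signs, Fgfr1, Fgfr2 and Fgfr4 among them. By pair, the ligand median was 0.25, -0.01 and -0.02, the receptor median -0.11, 0.11 and 0.31, and the feedback median 0.35, -0.21 and -0.06. Receptors minus feedback genes came to -0.45, 0.32 and 0.36 in the order of the pairs, and ligands minus receptors to 0.35, -0.13 and -0.33. Both differences changed sign between pair A and the other pairs, so neither held over the replicates. Ligands minus feedback genes came to -0.10, 0.19 and 0.03. Without pair A the medians were -0.04 for ligands, 0.13 for receptors and -0.17 for feedback genes. In pair B the ratio was above 0 for 6 of 13 ligands, 4 of 5 receptors and 1 of 10 feedback genes, against 10552 of the 19335 genes tested. In pair C it was above 0 for 4, 4 and 3 of them, against 9496 of all genes.

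Counts past 1.5-fold in a single pair show where the differences lay. In pair A 7 of the 29 genes were at least 1.5-fold higher in the Paraxis-/- pool, namely Fgf8, Fgf9, Fgf17, Fgf18, Spry2, Dusp6 and Etv4, where 2.29% of all genes were, and 0 were as much lower, where 2.1% were. In pair B 0 were higher (0.822% of all genes) and 2 were lower, Fgf8 and Fgf18 (0.398%). In pair C Fgf15 was higher (1.07%) and Fgf18 lower (2.05%). A ratio above 0 in pair A together with one under 0 in pair B was found for 15 of the 29, against 21.3% of all genes, and the highest ratio was in pair A for 19 of the 29, against 34.6%. These shares have no replicate behind them, since each pair is a single comparison of pools.

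The markers of the tail bud and posterior presomitic mesoderm also had their highest median in pair A. Their medians by pair were 1.17, -0.36 and 0.29, and 6 of the 8 were at least 1.5-fold higher in the Paraxis-/- pool of pair A, Fgf17 among them. The caudal homeobox gene Cdx2 had ratios of 3.11, -0.51 and -0.82, and the T-box genes Tbx6 and T had 2.43, -0.59 and 0.22 and 1.44, -0.34 and 0.39. Nkx1-2, a homeobox gene of caudal progenitors, had 1.85, -0.89 and 0.41, and Cyp26a1, the retinoic acid degrading enzyme of the tail bud, had 0.89, -0.13 and 0.36. Wnt3a did not follow, with ratios of -0.08, 0.17 and 0.37, and Msgn1, a regulator of presomitic mesoderm, had 0.42, -0.11 and 0.05. None of the 8 passed the adjusted threshold. How much of the pair A ratios of Fgf8, Fgf9, Fgf17, Fgf18, Dusp6, Etv4 and Spry2 goes with the amount of posterior tissue in the pools was not tested.

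Other tissues also differed within pair A. Surface ectoderm markers (9 tested) had pair medians of 0.54, 0.08 and 0.13, with a summed signal of 19776, 30019 and 31900 in WT and 38176, 31162 and 34737 in Paraxis-/- pools. Endoderm markers (4 tested) had medians of 0.68, -0.02 and -0.08, with summed signals of 2442, 8674 and 7968 in WT and 15379, 6574 and 5180 in Paraxis-/- pools. Cdx2, already counted among the tail bud markers, is 1 of these 4, so the lists are not separate. Neural crest markers (3 tested) had medians of -0.40, 0.23 and 0.17. Blood markers (6 tested) took another course, with medians of 0.26, 1.12 and -0.02. The part of these tissues in the FGF ratios was not tested.

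**Figure D5:**
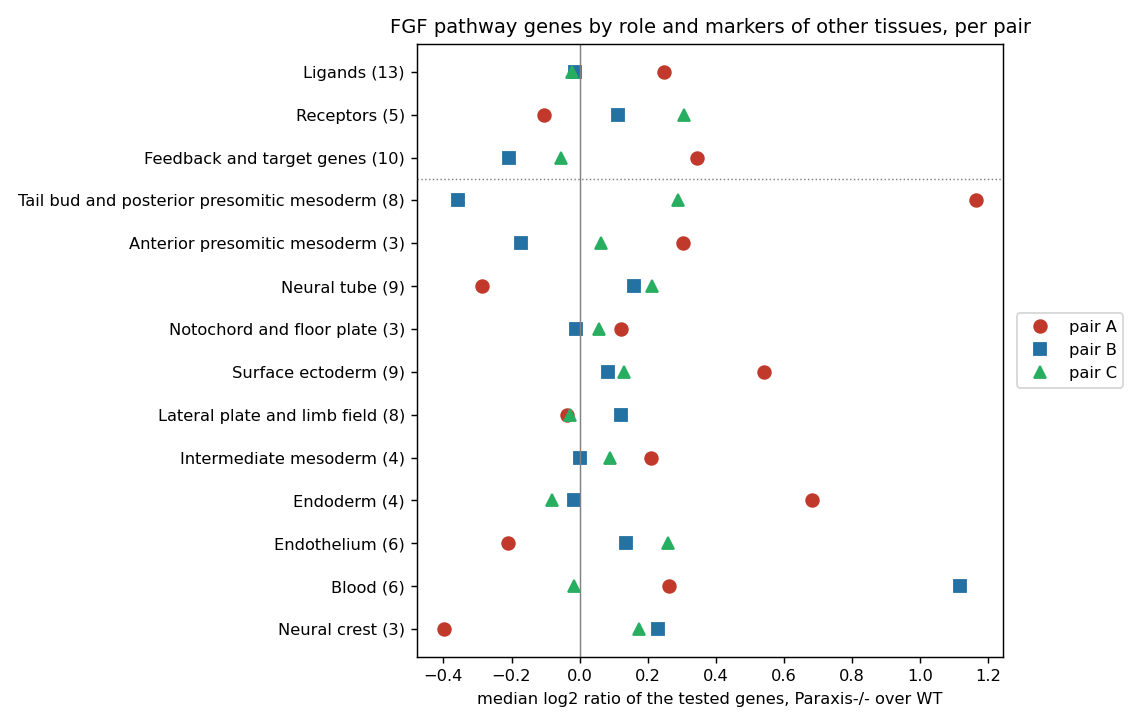
Median log2 ratio of Paraxis-/- over WT in each pair, for the ligands, receptors and feedback genes (above the dotted line) and for marker lists of other tissues (below it); the number of tested genes is in brackets. Ligands, feedback genes and tail bud markers have pair A to the right of the other pairs, while receptors and neural tube markers have it to the left.

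Further genes of the pathway were counted in 3 lists, none of which held a gene past the adjusted threshold. Of 29 other ligands, co-receptors and binding proteins 24 were tested, 14 with a positive mean, and the median was 0.02. The lowest p values in limma belonged to Flrt3, an adhesion protein that binds FGF receptors, with a mean of -0.27 (SE 0.07, adjusted p = 0.855), its relative Flrt2 with -0.57 (SE 0.23) and Fgfbp3, a carrier of secreted FGF, with 0.24 (SE 0.10). Il17rd, a membrane inhibitor of FGF signalling also called Sef, had ratios of 1.02, -0.17 and -0.17, positive in pair A and negative in the others as for Etv4 and Dusp6. Il17rd was named after its values were seen.

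Of 38 genes of the intracellular cascade and its further inhibitors 35 were tested, 19 of them with a positive mean, and the median was 0.00. Dusp7, a further ERK phosphatase, had a mean of -0.19 (SE 0.07, limma adjusted p = 0.947), the adaptor Shc1 had 0.22 (SE 0.08) and Dusp9 had -0.30 (SE 0.14). None of these 35 was at least 1.5-fold higher in pair A, which is close to the share of 2.29% among all genes. Of 26 genes downstream of FGF or graded along the presomitic mesoderm 24 were tested, 16 of them with a positive mean. Their median was 0.16 over pairs and 0.39, -0.09 and 0.04 by pair. In pair A 7 of the 24 were at least 1.5-fold higher, against the same 2.29% of all genes. This list shares Cdx2, Tbx6, T, Msgn1, Wnt3a and Cyp26a1 with the tail bud markers. Aldh1a2, the enzyme that makes the retinoic acid opposing FGF in this tissue, had -1.06, -0.79 and -0.60 (mean -0.82, SE 0.11, limma adjusted p = 0.358). Egr1, an immediate target of ERK, had 0.54, 0.49 and 0.17 (mean 0.40, SE 0.10, limma adjusted p = 0.813), and Lfng, a modifier of Notch in the segmentation clock, had 0.31, 0.09 and 0.29. Aldh1a2, Egr1 and Lfng each kept 1 sign in 3 of 3 pairs. They were named for the smallest p of this list, a choice that favours such genes, so their agreement is not separate evidence. Of the 24 tested genes of the list 7 kept 1 sign, against 25.7% of all genes.

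Since genes of different roles had high ratios together in pair A, the promoters were searched for the letters of ETS factor sites on both strands, in the 250 bases before each gene start of RefSeq (GRCm38.p6). An ETS core was taken as CCGGAA and a PEA3 site, named for Etv4, as AGGAAG. Both hold the letters GGAA, and no single GGAA can count for both. Of 32851 promoters 12.03% held the first, 29.5% the second and 38.2% either. Promoters were matched for 25 of the 35 genes, and 10 of the 25 held either motif in at least 1 promoter, with 3 of 13 ligands, 3 of 4 receptors, 3 of 7 feedback genes and Frs2. The 38.2% is a share of single promoters, whereas a gene was counted if any of its promoters held a motif. The counts per gene are therefore not directly comparable with 38.2%, and no difference was tested. Of the 7 genes past 1.5-fold in pair A, Fgf8, Fgf17 and Etv4 had no matched promoter, and that of Fgf9 held neither motif. The promoters of Dusp6, Spry2 and Fgf18 are shown for their difference. Dusp6 (chr10:99262981-99263230, plus strand) holds a PEA3 site on the opposite strand, in capitals, at 210 bases before the start. Spry2 (chr14:105896820-105897069, minus strand) and Fgf18 (chr11:33147401-33147650, minus strand) hold neither motif in this window.
Dusp6 promoter: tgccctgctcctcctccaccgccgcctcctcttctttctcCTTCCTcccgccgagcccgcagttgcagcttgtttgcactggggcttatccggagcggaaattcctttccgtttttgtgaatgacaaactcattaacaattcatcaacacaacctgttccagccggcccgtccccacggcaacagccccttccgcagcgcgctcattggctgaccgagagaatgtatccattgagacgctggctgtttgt
Spry2 promoter: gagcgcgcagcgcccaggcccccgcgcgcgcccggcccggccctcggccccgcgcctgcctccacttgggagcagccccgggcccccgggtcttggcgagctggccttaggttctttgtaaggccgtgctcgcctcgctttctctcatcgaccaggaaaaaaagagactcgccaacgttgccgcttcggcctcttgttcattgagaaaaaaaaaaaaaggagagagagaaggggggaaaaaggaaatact
Fgf18 promoter: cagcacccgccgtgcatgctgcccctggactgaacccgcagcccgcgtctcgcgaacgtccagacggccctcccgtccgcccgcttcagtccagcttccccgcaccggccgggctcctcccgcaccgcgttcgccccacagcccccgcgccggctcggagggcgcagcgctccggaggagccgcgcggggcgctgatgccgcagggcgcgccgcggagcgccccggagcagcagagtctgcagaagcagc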

How the data were processed

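Both channels of 6 two-colour arrays were read as spot intensity with Agilent Feature Extraction, version 10.7.3.1 on slide 1 and 10.5.1.1 on slide 2 per the file headers, whereas the submitters' processing notes name 8.5.1.1. Per the labels' protocols 250 ng of total RNA, with an integrity number of at least 7.9, was labelled with Cy3 or Cy5. The deposited series matrix holds log10 ratios of Cy5 over Cy3 (column medians of 0), which differed from those in the scanner files by at most 5e-11.

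Median spot intensities were corrected for median local background by normexp (offset 50) and each array was then normalized by loess (limma 3.58.1, R 4.3.3). Control spots (1639) and outlier spots had no weight, the 438 to 620 outlier spots of an array were dropped, and spots of a probe were averaged. Ratios were turned to Paraxis-/- over WT through the dyes in the labels, and both arrays of a dye swap were averaged, so n is 3 pairs. Pool levels, on the log2 scale, were taken after loess and then Aquantile scaling. A summed signal adds a list's unlogged levels.

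Probes well above background in at least 4 of 6 measurements of either genotype were kept (28639 of 41174), and the brightest of them stood for its gene. The 19335 genes with at least 2 pairs entered a two-sided test of the mean ratio against 0 (lmFit, eBayes), and p was adjusted over all of them by Benjamini and Hochberg with a threshold of 0.05. The fit was tested on simulated data. Genes were matched by the name in the first slide's files, joined by probe. A further 1 probe, whose name is an older synonym of Fgf12, was not counted. Probe positions are those of the files (mm9), and exons were not annotated here.

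The labels give the pools as separate biological replicates. Titles and descriptions disagree on the pools of 2 slide-2 pairs, and the titles were used. The 35 genes, their roles, the pathway lists and the marker lists were chosen with earlier results of these data known. Genes given with every value are those past the threshold, up to 3 per role with the smallest p among those of 1 sign in all pairs, and Fgf8, Fgfr1, Fgf15, Fgf10, Spry2, Dusp6 and Etv4. Fgf9, Fgf18 and Fgfr3 were added after their values were seen. For each pathway list the 3 genes with the smallest p are named, and Il17rd was added after its values were seen. Alternatives covered background, normalization, the filter on dim probes, probe choice, blocking and left-out pairs.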

Additional observations from a re-analysis of the deposited data

How the results depend on the processing

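None of the tested genes among the 35 passed the adjusted threshold under any of the 15 alternatives, which were not summarised for the further pathway lists. The number of all genes past it moved from 4 to 7 with a normexp offset of 0, 7 with Agilent processed signals, 18 with ratios scaled between arrays, 76 with slide as a fixed block, 66 with the pair as a random replicate block and 92 with no replicate block, where dye swaps count as replicates. With 1 pair left out it was 0 to 2. Tcf15 then ran from -5.50 to -5.35 and missed the threshold without pair B (adjusted p = 0.0868).

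For Fgf8, Fgf10, Fgf12, Fgf15, Fgfr1, Spry1, Spry2, Dusp6 and Etv4 the sign was kept in 129 comparisons with an alternative and turned in 5. It reversed for Fgfr1 with the mean of its kept probes (-0.0351), and without pair A for Fgf8, Spry2, Dusp6 and Etv4, whose means with 1 pair left out ran from -0.38 to 0.60, from -0.000326 to 0.45, from -0.16 to 0.31 and from -0.20 to 0.40. The cause was not tested. Fgf15 ran from 0.23 to 0.59, with a lowest adjusted p of 0.280. Fgf12 was not tested under the strictest filter. Asking for all 6 measurements of both genotypes left 8 detected ligands, and asking for any measurement gave 16. Titles and descriptions give different partners for pairs B and C; crossing them changed no call among these genes. Over the alternatives the median ran from -0.04 to 0.18 for ligands, from 0.02 to 0.14 for receptors and from -0.17 to 0.15 for feedback genes. It turned negative for ligands and feedback genes without pair A, and for feedback genes also under the strictest filter (-0.0025). With 3 pairs, mean differences inside the intervals given above are not resolved.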
